A study of Mus musculus with 6 samples.

Results

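Transcript levels of 10 amino acid transporter genes were examined in bulk RNA-seq of splenic B cells from WT and *Hif1a* KO mice. The genes were chosen by name (*Slc7a5*, *Slc3a2*, *Slc7a11*, *Slc7a1*, *Slc7a3*, *Slc1a4*, *Slc1a5*, *Slc38a1*, *Slc38a2* and *Slc6a9*), with earlier results of these data known. Their rows were found through the symbols that GENCODE pairs with Ensembl identifiers. They are 10 of the 46983 genes listed, and all 10 were among the 13312 genes tested, those with a mean of at least 0.5 FPKM (fragments per kilobase of gene and scaled to the reads of each library). *Slc7a11* reached this mean only through 2 WT libraries. The series holds 6 libraries, 3 labelled WT and 3 labelled *Hif1a* KO. Every culture received LPS at 5 μg/ml together with BAFF, IL-5 and TGF-β, each at 10 ng/ml, a mixture that drives switching to IgA, and was harvested on day 3. According to the study's methods, follicular B cells (CD21int CD23+) were sorted from splenocytes before culture. The KO mice carried 2 loxP-flanked *Hif1a* alleles and cre under the *Mb1* (*Cd79a*) promoter, which acts from early B-cell stages. WT animals were littermates on the same C57BL/6 background, either heterozygous for the floxed allele with cre or homozygous for it without cre, and the library labels do not separate these 2 kinds. The labels do not say whether the 3 libraries of a genotype came from separate mice or cultures, so the p-values measure only the spread between these libraries, which may be technical.

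Amino acids cross the plasma membrane through carriers of several families. The heavy chain CD98, the product of *Slc3a2*, brings light chains such as LAT1 (*Slc7a5*) and xCT (*Slc7a11*) to the surface, and these exchange one amino acid for another, while the sodium-coupled carriers of the SLC38 and SLC6 families build up the intracellular pool. Activated lymphocytes are known to raise several of these carriers as they grow, and many of the genes are targets of ATF4, the transcription factor of the amino acid response.

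The targeted gene was measured first. *Hif1a* (chr12:73901375-73947530, GRCm38) stood at 36.5, 49.8 and 45.8 FPKM in WT replicates 1, 2 and 3 and at 46.5, 45.6 and 52.8 FPKM in KO replicates 1, 2 and 3. The groups overlapped, with a log2 fold change (KO minus WT) of 0.14 ± 0.12 (SE) and an adjusted p of 0.70 by limma. A value summed over the whole gene need not fall when a floxed part is removed, and which exon was flanked is not given in the sources used here, so this value does not check the genotype labels; WT and KO below are the labelled genotypes.

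The library labelled WT replicate 1 stood apart from the other two WT libraries. On the first principal component of the genes tested, which held 54.7% of the variance, WT replicates 2 and 3 had scores of 26.2 and 25.9, WT replicate 1 had -15.7, and the KO libraries had -9.86, -7.10 and -19.5. Results are therefore given for all 6 libraries and without WT replicate 1. Leaving out each library in turn was among the alternatives, but a choice of library that rests on the same values makes its p-values descriptive. The read totals behind the FPKM values, as recovered from them, were 37222477, 30955753 and 25973237 in WT and 25030210, 34356000 and 29869848 in KO. Reads on the listed genes made up 99.9% of each, so these totals are close to the reads counted on genes.

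**Figure D1:**
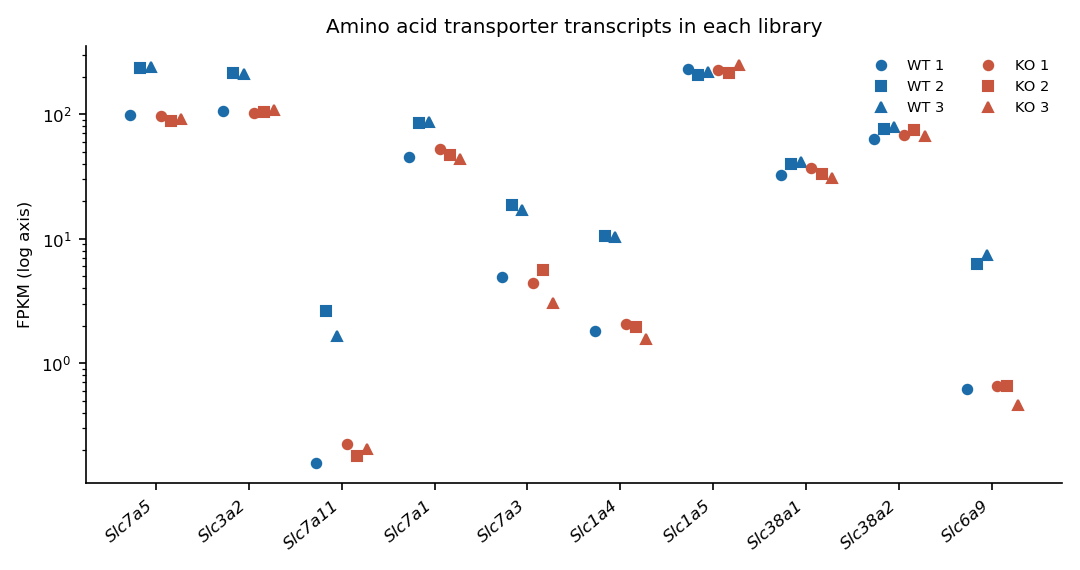
FPKM of the 10 transporter genes on a log axis, with 1 symbol per library (WT blue, KO red; circle, square and triangle for replicates 1, 2 and 3). WT replicates 2 and 3 lie above the other 4 libraries for 9 genes, all but *Slc1a5*, though by a small margin for *Slc38a1* and *Slc38a2*.

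*Slc7a5* and *Slc3a2* encode the light and the heavy chain of the exchanger that imports leucine and other large neutral amino acids. *Slc7a5* (chr8:121881150-121907694) was at 98.2, 234 and 241 FPKM in WT and at 96.0, 87.8 and 90.8 FPKM in KO. Every KO library was lower than every WT library, by a narrow margin for WT replicate 1, and 6.03% of all genes tested showed this order. *Slc3a2* (chr19:8706882-8723369) was at 106, 213 and 211 FPKM in WT and at 102, 104 and 108 FPKM in KO, so that WT replicate 1 fell inside the KO range while the other WT libraries lay above it. With 6 libraries the log2 fold changes of FPKM + 1 were -0.95 ± 0.33 (SE) for *Slc7a5* and -0.68 ± 0.26 for *Slc3a2*, both with an adjusted p of 0.63 by limma. Without WT replicate 1 they were -1.37 ± 0.06 (adjusted p = 0.00071) and -1.01 ± 0.05 (adjusted p = 0.0013). In bulk RNA, fewer cells with a transcript and less of it per cell cannot be told apart.

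The ratio of the 2 chains does not depend on the scaling between libraries. *Slc7a5* FPKM was 0.925, 1.10 and 1.14 times that of *Slc3a2* in WT and 0.941, 0.842 and 0.840 times in KO. The KO minus WT difference of the log2 ratio was -0.27 (exact permutation test, two-sided, p = 0.20; adjusted over 3 ratios p = 0.40), and the smallest p that 3 against 3 libraries allow is 0.10. The light chains that pair with CD98 were compared by their share of the summed FPKM of 6 such genes. *Slc7a5* made up 73.8%, 86.6% and 88.8% of this sum in WT and 75.2%, 74.9% and 69.9% in KO. *Slc7a7*, of the exchanger of cationic and neutral amino acids known as y+LAT1, came next in the KO libraries, at 17.4, 16.2 and 25.9 FPKM against 21.8, 16.7 and 13.3 FPKM in WT, and *Slc7a6* (y+LAT2) was between 12.8 and 16.1 FPKM in all 6 libraries. *Slc7a8* stayed at or below 0.689 FPKM and *Slc7a10* was listed at 0 in every library. Of the 4 partners tested none was called with 6 libraries; without WT replicate 1 *Slc7a5* fell, and *Slc7a11*, which was tested only because WT replicates 2 and 3 lifted its mean, was also called. Of all genes tested, 5.75% fell and 3.64% rose without WT replicate 1, and the counts for the gene lists below are to be read against these shares.

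*Slc7a11* encodes xCT, which takes up cystine in exchange for glutamate. It was at 0.157, 2.63 and 1.64 FPKM in WT and at 0.222, 0.178 and 0.205 FPKM in KO (chr3:49892526-50443614). These values rest on 21, 292 and 153 reads in WT and on 20, 22 and 22 reads in KO. WT replicate 1 was below the KO libraries, and WT replicate 2 was 1.60 times WT replicate 3. With 6 libraries limma gave a log2 fold change of -0.89 ± 0.39 (SE; adjusted p = 0.63), against -1.36 ± 0.17 (adjusted p = 0.0098) without WT replicate 1, and it was -0.54 without WT replicate 2. The pseudocount of 1 understates changes at such levels. With 6 libraries the value was -1.83 with a pseudocount of 0.1 and -1.97 by voom on the recovered reads, and *Slc7a11* was called in neither. With a KO mean of 0.202 FPKM, *Slc7a11* passed the filter only because WT replicates 2 and 3 were high, so its call had to favour a difference and is given as a description. Among 11 genes tested for cystine and glutathione use, 0 were called with 6 libraries, while 6 were called lower and 0 higher without WT replicate 1. *Cth*, which makes cysteine from cystathionine, was at 5.54, 69.6 and 62.8 FPKM in WT and at 6.26, 6.75 and 5.03 FPKM in KO. *Chac1*, which degrades glutathione, was at 2.28, 11.96 and 12.9 FPKM in WT and at 2.76, 2.04 and 2.68 FPKM in KO. The same libraries were high for *Gclc* and *Gclm*, the subunits of the enzyme that starts glutathione synthesis, with log2 fold changes of -0.71 and -0.62 without WT replicate 1.

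Because several members were high in the same libraries, their promoters were searched for the letters of the C/EBP-ATF response element, TGATGNAA, on both strands. The RefSeq table (GRCm38.p6; 250 bases before to 50 after a start) held 9 windows for 6 members, *Slc3a2*, *Slc7a11*, *Slc7a1*, *Slc1a4*, *Slc38a2* and *Slc6a9*, and none for *Slc7a5*, *Slc7a3*, *Slc1a5* and *Slc38a1*. The letters were found in 2 of these 9 windows, those of *Slc7a11* and *Slc1a4*, and in 3.97% of all 32851 windows. The stretches that hold them are shown from 100 bases before the start to 20 bases into the transcript, on the minus strand, with the matches in capitals (chr3:50443594-50443713 for *Slc7a11* and chr11:20332694-20332813 for *Slc1a4*).
Slc7a11: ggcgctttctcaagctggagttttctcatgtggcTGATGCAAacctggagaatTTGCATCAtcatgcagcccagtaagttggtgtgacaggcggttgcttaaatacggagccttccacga
Slc1a4: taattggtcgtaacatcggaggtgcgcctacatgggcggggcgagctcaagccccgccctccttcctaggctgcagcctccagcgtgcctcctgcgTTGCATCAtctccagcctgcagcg
*Slc7a11* has 2 matches, facing each other, and the match in *Slc1a4* spans the start. The core letters of the hypoxia response element, ACGTG or GCGTG on either strand, were in 7 of the 9 windows, 3 of them of *Slc6a9*, and in 43.8% of all windows, and were absent from that of *Slc7a11* and from 1 of the 2 of *Slc7a1*. A match of letters is a description of the window and does not show binding.

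*Slc7a1* and *Slc7a3* encode the cationic amino acid transporters CAT1 and CAT3, which carry arginine, lysine and ornithine. *Slc7a1* (chr5:148327410-148399904) was at 45.6, 84.4 and 85.8 FPKM in WT and at 52.4, 47.0 and 44.0 FPKM in KO. *Slc7a3* (chrX:101079210-101086020) was at 4.95, 18.8 and 17.1 FPKM in WT and at 4.43, 5.57 and 3.06 FPKM in KO. In both genes WT replicate 1 lay within the KO range and the other WT libraries lay above all KO libraries. The log2 fold changes were -0.53 ± 0.24 (SE) and -1.29 ± 0.46 with 6 libraries (adjusted p = 0.63 for both, limma), and -0.82 ± 0.08 (adjusted p = 0.0063) and -1.85 ± 0.20 (adjusted p = 0.0075) without WT replicate 1. Of 5 genes tested for arginine use, 2 were called lower without WT replicate 1 and 0 with 6 libraries. They were *Odc1*, which starts polyamine synthesis, and *Srm*, spermidine synthase, with log2 fold changes of -0.51 and -0.41 without that library; those of *Sms* and *Gatm*, not called, were -0.28 and 0.29.

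*Slc1a4* and *Slc1a5* are paralogs that encode ASCT1 and ASCT2, exchangers of small neutral amino acids, and ASCT2 is a main route for glutamine. *Slc1a4* (chr11:20302180-20332713) was at 1.80, 10.6 and 10.3 FPKM in WT and at 2.08, 1.96 and 1.56 FPKM in KO. *Slc1a5* (chr7:16781340-16798274) was at 230, 206 and 220 FPKM in WT and at 225, 215 and 246 FPKM in KO, the most abundant member in both groups by its mean. The paralogs thus differed in pattern: *Slc1a4* was high in 2 WT libraries, whereas *Slc1a5* showed no library apart from the rest. For *Slc1a4* limma gave a log2 fold change of -1.32 ± 0.53 (SE; adjusted p = 0.63) with 6 libraries and -2.00 ± 0.11 (adjusted p = 0.0013) without WT replicate 1. For *Slc1a5* it was 0.07 ± 0.08 (adjusted p = 0.76) and 0.10 ± 0.08 (adjusted p = 0.41). With 1 library left out, the value for *Slc1a5* lay between 0.01 (without KO replicate 3) and 0.11 (without KO replicate 2). *Slc1a5* FPKM was 128, 19.5 and 21.4 times that of *Slc1a4* in WT and 108, 110 and 158 times in KO. The difference of the log2 ratio was 1.71 (exact permutation test, two-sided, p = 0.30; adjusted over 3 ratios p = 0.40), and 2.60 without WT replicate 1.

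*Slc38a1* and *Slc38a2* encode SNAT1 and SNAT2, sodium-coupled importers of glutamine, alanine and other neutral amino acids. *Slc38a1* (chr15:96571418-96642913) was at 32.3, 39.6 and 41.5 FPKM in WT and at 36.7, 33.3 and 30.5 FPKM in KO. *Slc38a2* (chr15:96687392-96699730) was at 63.2, 75.8 and 79.1 FPKM in WT and at 68.3, 74.8 and 67.0 FPKM in KO. The groups overlapped for both genes, although WT replicates 2 and 3 were the highest libraries, and neither was called with or without WT replicate 1. The log2 fold changes with 6 libraries were -0.17 ± 0.11 (SE, adjusted p = 0.65, limma) and -0.05 ± 0.10 (adjusted p = 0.87), and that of *Slc38a2* was 0.016 without WT replicate 3. That of *Slc38a1* was -0.27 without WT replicate 1 and -0.10 without WT replicate 3. *Slc38a2* FPKM was between 1.86 and 2.25 times that of *Slc38a1* in every library, and the KO minus WT difference of the log2 ratio was 0.12 (exact permutation test, two-sided, p = 0.40; adjusted over 3 ratios p = 0.40), with 0.21 without KO replicate 1 and 0.07 without KO replicate 2. Of 10 genes tested for glutamine and glutamate use, 2 were called lower and 1 higher without WT replicate 1, and 0 with 6 libraries. *Glul*, glutamine synthetase, was at 147, 101 and 96.6 FPKM in WT and at 136, 143 and 161 FPKM in KO, and *Gpt2*, a mitochondrial alanine transaminase, was at 3.22, 16.2 and 17.9 FPKM in WT and at 3.67, 3.11 and 3.92 FPKM in KO. The log2 fold changes of *Ppat* and *Cad*, enzymes of purine and pyrimidine synthesis that use glutamine, were -0.32 and -0.55 without WT replicate 1, and *Cad* was not called.

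*Slc6a9* encodes GLYT1, the sodium- and chloride-coupled glycine transporter. It was at 0.619, 6.28 and 7.38 FPKM in WT and at 0.658, 0.652 and 0.463 FPKM in KO (chr4:117834506-117875198), on 35, 295 and 291 reads and on 25, 34 and 21 reads. WT replicates 2 and 3 were at least 9.54 times the highest KO library, whereas WT replicate 1 lay inside the KO range. With 6 libraries limma gave a log2 fold change of -1.54 ± 0.59 (SE; adjusted p = 0.63), against -2.30 ± 0.12 (adjusted p = 0.0013) without WT replicate 1, the most negative of the 10 in both. The log2 fold change of *Slc6a9* was -1.21 without WT replicate 2 and -1.11 without WT replicate 3. Of 8 genes tested for serine and glycine use, 2 were called lower without WT replicate 1, *Shmt2* (-1.16) and *Gcsh* (-0.32), and 0 with 6 libraries. *Shmt2*, the mitochondrial enzyme that makes glycine from serine, was at 65.9, 143 and 151 FPKM in WT and at 69.4, 64.2 and 61.8 FPKM in KO, and the log2 fold changes of *Shmt1* and *Amt*, not called, were -0.26 and -0.15 with 6 libraries.

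Over the 10 members, 0 were called with 6 libraries, as were 0 of the 13312 genes tested (0%) at an adjusted p under 0.05 by limma, and voom on the recovered reads also called 0 genes. At an unadjusted p under 0.05, 5 members were lower in KO, against 599 genes tested (4.5%), and 929 genes passed in either direction (6.98%). Without WT replicate 1, 7 members fell and 0 rose, and 6 fell when *Slc7a11*, admitted by its high libraries, is set aside; among all genes tested 766 fell (5.75%) and 485 rose (3.64%). The members were chosen with earlier results of these data known, so their counts are a description and not an independent comparison with these shares. The median log2 fold change of the members was -0.79 with 6 libraries and -1.19 without WT replicate 1, beside -0.03 and -0.05 for all genes tested. Both medians of the members include *Slc7a11*. With it set aside, the middle member was *Slc3a2*, at -0.68 with 6 libraries and -1.01 without WT replicate 1. Leaving out WT replicate 2 or 3 instead weakened the changes of the 7 members called without WT replicate 1, and 0 members were called. Their weakest values were then -0.73 (*Slc7a5*), -0.51 (*Slc3a2*), -0.54 (*Slc7a11*), -0.37 (*Slc7a1*), -0.98 (*Slc7a3*), -0.98 (*Slc1a4*) and -1.11 (*Slc6a9*). In number, 9 of the 10 members had a negative log2 fold change with 6 libraries, also under median-ratio scaling and quantile normalization. With library weights, an alternative chosen after seeing the data that gave WT replicate 1 the lowest weight (0.238), 7 members and 1449 genes were called.

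**Figure D2:**
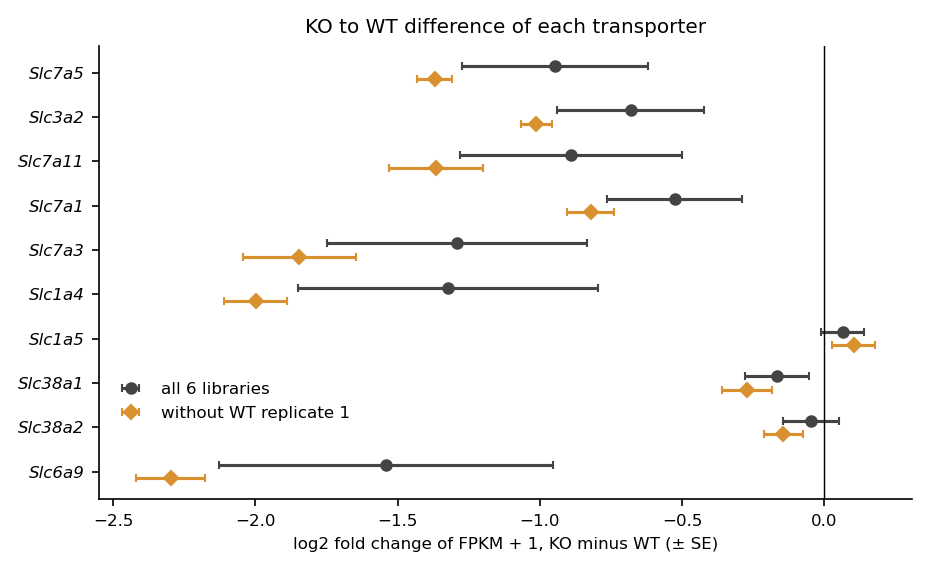
Log2 fold change of FPKM + 1 (KO minus WT, horizontal axis) with its standard error for each member, from all 6 libraries (dark circles) and without WT replicate 1 (orange diamonds). The 7 members called without that library lie between -0.82 and -2.30, and the other 3 lie between -0.27 and 0.10.

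The order of levels was clearest in the KO libraries. By mean FPKM it ran *Slc1a5* (229 ± 15.9, SD, n = 3), *Slc3a2* (105 ± 3.05), *Slc7a5* (91.5 ± 4.14), *Slc38a2* (70.1 ± 4.19), *Slc7a1* (47.8 ± 4.27), *Slc38a1* (33.5 ± 3.10), *Slc7a3* (4.36 ± 1.26), *Slc1a4* (1.87 ± 0.27), *Slc6a9* (0.591 ± 0.111) and *Slc7a11* (0.202 ± 0.022), and no 2 neighbours overlapped. In WT the spread was wider, at 191 ± 80.8 FPKM for *Slc7a5* and 177 ± 61.2 for *Slc3a2* (SD, n = 3). There *Slc1a5* overlapped *Slc7a5*, *Slc7a5* overlapped *Slc3a2*, and *Slc38a2* overlapped *Slc7a1*. Among the 4 least abundant members each overlapped the next, while *Slc7a3*, the highest of them, lay below *Slc38a1* without overlap. The summed FPKM of the members was 583, 892 and 915 in WT and 588, 571 and 592 in KO.

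Of 47 other surface and lysosomal amino acid transporters, 16 were tested; 0 were called with 6 libraries, and 2 fell and 0 rose without WT replicate 1, with medians of 0.01 and 0.04. The 2 were *Slc15a3*, a lysosomal transporter of histidine and peptides, at 15.1, 30.4 and 30.7 FPKM in WT and 14.3, 14.8 and 17.7 FPKM in KO, and *Slc38a7*, at 16.1, 21.3 and 19.1 FPKM in WT and 13.1, 13.3 and 14.8 FPKM in KO. *Slc38a6* and *Slc43a1*, not called, had log2 fold changes of -0.48 and 0.34 without WT replicate 1. Of 9 mitochondrial amino acid carriers tested, 1 fell (*Slc25a13*, -0.33) and 1 rose (*Slc25a15*, 0.63) without WT replicate 1, and *Slc25a22* (-0.24) and *Slc25a38* (-0.22) were not called. Of 34 genes tested that sense amino acids upstream of mTORC1, 4 fell and 1 rose without WT replicate 1 (5.75% and 3.64% over all genes tested), and the median was -0.04; *Sesn2* (-1.50) and *Lars* (-0.83) fell, *Sesn1* (0.54) rose and *Castor1* (0.72) was not called. Of 6 genes tested for leucine and isoleucine use 1 fell without WT replicate 1, *Bcat1*, the cytosolic transaminase, at 19.3, 55.8 and 56.8 FPKM in WT and 22.4, 17.9 and 13.8 FPKM in KO, and *Bckdha*, *Bckdhb* and *Dbt* had log2 fold changes of -0.05, -0.10 and -0.11 with 6 libraries. None of these lists had a gene called with 6 libraries.

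The members were set beside the amino acid response, the program of ATF4. Of 25 response genes tested, 24 had a negative log2 fold change with 6 libraries and 0 were called. Without WT replicate 1, 22 fell and 0 rose, with a median of -1.16, beside -1.19 for the members. These medians include *Stc2* and *Slc7a11*, each admitted by its high libraries, so their likeness is not read as a result. The list of response genes was also chosen with earlier results of these data known, so its counts are a description. With *Slc7a11* set aside, the middle member was *Slc3a2*, at -1.01. *Asns*, asparagine synthetase, was at 27.5, 142 and 142 FPKM in WT and at 28.4, 26.5 and 27.0 FPKM in KO. *Trib3* was at 1.96, 20.5 and 18.9 FPKM in WT and at 2.50, 2.29 and 2.50 FPKM in KO, and *Nupr1* was at 1.47, 10.2 and 8.59 FPKM in WT and at 1.27, 0.828 and 0.914 FPKM in KO. *Stc2*, among those that fell, was tested only because WT replicates 2 and 3 were high. The libraries that were high for 7 members were thus also high for these genes and for *Cth*. Of 11 NRF2 targets tested, 7 fell and 0 rose without WT replicate 1 and 0 were called with 6 libraries. *Hmox1*, heme oxygenase, was at 4.77, 99.8 and 49.5 FPKM in WT and at 5.56, 5.32 and 6.12 FPKM in KO, and *Nqo1* was at 0.640, 7.70 and 5.88 FPKM in WT and at 0.566, 0.5998 and 0.604 FPKM in KO, while *Srxn1* (-0.99 without WT replicate 1) was not called. The lists share genes, so that their counts are not separate: *Gclc*, *Gclm*, *Gsr* and *Txnrd1* were also counted under cystine and glutathione use, and *Cth*, *Chac1*, *Gpt2*, *Shmt2* and *Sesn2* both under the amino acid response and under a list given above.

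**Figure D3:**
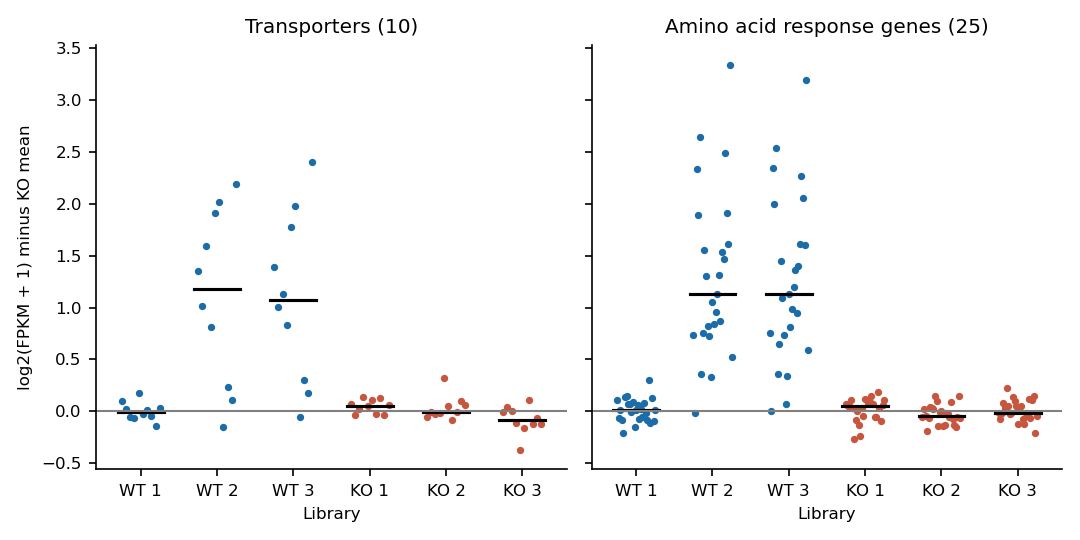
Log2(FPKM + 1) of each gene minus its mean in the 3 KO libraries (vertical axis), by library, for the 10 transporters (left) and the 25 amino acid response genes tested (right); each point is a gene and the bar is the median. The medians of the transporters, *Slc7a11* included, are 1.18 and 1.07 in WT replicates 2 and 3 and -0.01 in WT replicate 1.

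The genes most like *Slc3a2* over the 6 libraries, among 9274 others with a mean of at least 5 FPKM, were *Vdac3*, *Zwint*, *Tcf19*, *Ccdc88a* and *Ghitm*, each with a Pearson r of log2(FPKM + 1) of at least 0.998. This likeness describes 6 libraries in which 2 stand apart. Of the members, *Slc7a5* (0.994), *Slc6a9* (0.993) and *Slc1a4* (0.991) had the highest r to *Slc3a2*, and *Slc1a5* had -0.59.

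Markers of other cell types were measured beside the members. The 12 macrophage markers summed to 74.5, 189 and 127 FPKM in WT and to 75.1, 80.1 and 68.3 FPKM in KO, and 9 of the 12 were higher in WT replicates 2 and 3 than in the other 4 libraries, all but *Itgam*, *Mrc1* and *Fcgr1*. *Mrc1* was at 0.938, 1.04 and 0.714 FPKM in WT and at 0.966, 0.884 and 1.12 FPKM in KO, and *Itgam* was at 0.227, 0.205 and 0.068 FPKM in WT and at 0.211, 0.236 and 0.130 FPKM in KO. The most abundant was *Adgre1*, at 55.5 to 91.1 FPKM in all libraries, and the other 11 markers summed to 14.7, 98.3 and 45.6 FPKM in WT and to 7.36, 10.4 and 12.8 FPKM in KO, where WT replicate 1 too lay above every KO library. No marker was at 0 in all 6, although *Fcgr1* was at 0 in all 3 KO libraries and in WT replicate 3, and *C1qb* and *C1qc* were at 0 in KO replicate 1. *Lyz2* was at 6.18, 58.3 and 26.2 FPKM in WT and at 0.5996, 2.23 and 3.70 FPKM in KO, and *Marco* at 0.164, 18.8 and 7.31 FPKM in WT and at 0.313, 0.634 and 0.554 FPKM in KO; the markers named, apart from *Adgre1*, were chosen after their values were seen. Over the 11 markers above 0 in WT replicate 3, WT replicate 2 was 1.12 (*Adgre1*) to 3.16 (*C1qc*) times WT replicate 3, and over the 10 members 0.851 (*Slc6a9*) to 1.60 (*Slc7a11*, on 292 and 153 reads) times. The highest ratio of the other 9 members was 1.10 (*Slc7a3*). Bulk RNA sums over all cells, so these ratios cannot tell macrophage RNA from B-cell RNA in a member's value. The cells had been sorted as follicular B cells before culture. The part of macrophage RNA in the differences of the members was not tested.

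**Figure D4:**
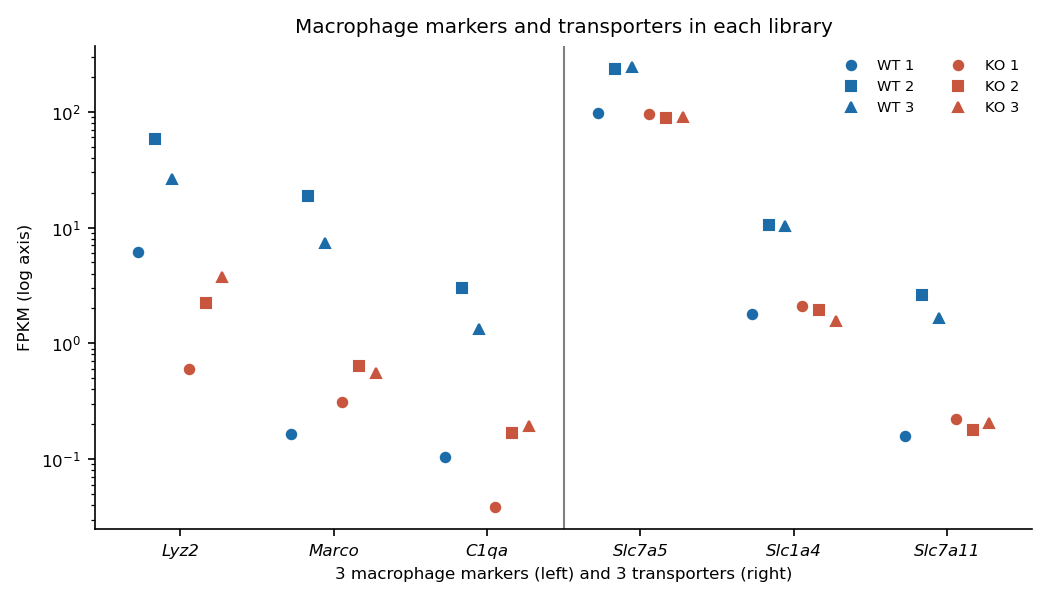
FPKM on a log axis of 3 macrophage markers (*Lyz2*, *Marco*, *C1qa*) and 3 transporters (*Slc7a5*, *Slc1a4*, *Slc7a11*), with 1 symbol per library (WT blue, KO red; circle, square and triangle for replicates 1, 2 and 3). These 3 markers, chosen after their values were seen, and *Slc7a11* are higher in WT replicate 2 than in WT replicate 3, *Slc7a5* and *Slc1a4* are nearly level, and the most abundant marker, *Adgre1*, with a ratio of 1.12, is not plotted.

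The 7 neutrophil markers summed to 32.8 FPKM in WT replicate 1, led by *S100a9*, and to 0.442 FPKM or less in every other library. The 7 B-cell markers, led by *Cd79a*, summed to between 3006 and 4031 FPKM, so that the labelled cell type carried its markers in all 6 libraries. The 6 plasma cell markers, led by *Xbp1*, summed to 715, 429 and 399 FPKM in WT and to 681, 505 and 906 FPKM in KO. Their sum was thus lowest where 7 of the members were highest, as were *Prdm1*, *Xbp1* and *Jchain*. *Sdc1* was lowest in KO replicate 1 (2.68 FPKM) and *Irf4* in KO replicate 2 (96.9 FPKM). *Tnfrsf17*, at or below 0.179 FPKM, did not follow the sum either. The 6 erythroid markers, led by *Hbb-bs*, summed to 3.35, 15.8 and 12.3 FPKM in WT and to 2.96, 4.84 and 3.05 FPKM in KO. The 6 basophil and mast cell markers, led by *Kit*, summed to 2.64, 6.80 and 6.18 FPKM in WT and to 3.05, 2.23 and 3.39 FPKM in KO, with *Cpa3* at 0 throughout. This sum was mostly *Kit*, at 2.46, 6.13 and 6.07 FPKM in WT and at 2.65, 2.05 and 3.11 FPKM in KO. The other 5 were below 0.5 FPKM in every library. The 6 dendritic cell markers were led by *Flt3*. They summed to 16.8, 16.2 and 17.9 FPKM in WT and to 13.0, 12.04 and 12.7 FPKM in KO. Every KO sum was below every WT sum, replicate 1 included. Of the single markers only *Siglech* showed this order. The groups overlapped for *Flt3*, *Itgax*, *Zbtb46*, *Xcr1* and *Clec9a*. *Flt3* was at 6.94 FPKM in KO replicate 1 and 6.31 FPKM in WT replicate 1. *Itgax* was at 4.07 FPKM in KO replicate 3 and 2.95 FPKM in WT replicate 3. Sums of the other lists were 0.594 to 1.41 FPKM for T cells (*Cd3g*), 0.954 to 2.22 FPKM for NK cells (*Prf1*; *Gzma* at 0) and 76.7 to 98.4 FPKM for stromal and endothelial cells (*Pecam1*). What these cells or the state of the B cells contributed to the members' values was not tested.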

How the data were processed

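Bulk RNA-seq of 6 libraries was used, grouped by the sample labels. The authors filtered the reads, aligned the pairs to mm10 (GRCm38) with TopHat, counted reads per gene with HTSeq and deposited FPKM. The annotation release, strand option and handling of multiply aligned reads are not given in the sources used here, so overlapping genes and near-identical copies are uncertain. GENCODE vM21 supplied symbols for 46488 of 46983 identifiers; *Slc66a1* was found under *Pqlc2*. Library totals were recovered from the smallest steps of the values, and 1 read on 1 kb was worth 0.027 to 0.040 FPKM. Genes with a mean of at least 0.5 FPKM were tested in R 4.3.3 with limma 3.58.1 (trended eBayes) on log2(FPKM + 1), by genotype alone, with Benjamini-Hochberg adjustment over all genes tested; low genes' changes are understated. The fit was run on simulated data with noise independent between genes, so no simulated library stood apart as WT replicate 1 did. Ratios were tested by exact permutation over libraries. Members and lists were chosen with earlier results of these data known. Named in each list of other genes were the 4 tested genes with the largest absolute change with 6 libraries and, in each cell type list, the most abundant gene and markers at 0. Alternatives were another pseudocount, other filters, scalings and variance models, a block for the replicate number, omission of single libraries, voom on recovered reads and, added later, library weights. Tables and figures were made in Python 3.11.15 (matplotlib 3.10.9, pandas 2.3.3).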

Additional observations from a re-analysis of the deposited data

How the results depend on the processing

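With 6 libraries, 0 members and 0 genes were called by limma with the main settings, another pseudocount, other filters, median-ratio scaling, quantile normalization, eBayes without trend or robust, and voom on recovered reads; 929 genes had an unadjusted p under 0.05. Leaving out 1 library at a time gave 0 to 1251 genes called and 0 to 7 members called. Without WT replicate 1 there were 1251 and 7, without KO replicate 1 there were 1 (*Ighd5-3*, named after its value was seen) and 0, and otherwise 0 and 0. Library weights, chosen after seeing the data, gave 1449 genes and 7 members. The cause of the dependence on WT replicate 1 was not tested. The median change of the members, *Slc7a11* included, stayed negative, from -0.53 to -1.19 over the libraries left out, and each ratio kept its sign. *Slc38a2*, alone among the members, changed sign, with -0.14 when WT replicate 1 was left out and 0.016 when WT replicate 3 was. With an FPKM minimum of 5, *Slc7a11*, *Slc1a4* and *Slc6a9* were not tested. Deviations of same-numbered WT and KO libraries correlated at -0.10, 0.14 and -0.28, so the numbers were not taken as pairs; with the replicate block, 0 genes and 0 members were called, the median stayed at -0.79, and not every library correlated best with its own number. Depth limits *Slc7a11* and *Slc6a9*, with 20 to 35 reads in the 4 lower libraries.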
